A study of Mus musculus with 3 samples.

Results

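The genes of the BMP, GDF and activin branch of the TGF-β superfamily described here, 10 in all, were followed across the mononuclear cells of the mouse diaphragm. They were chosen by symbol from the gene list of the deposited matrices, 10 of 32285 genes. They are the BMP ligands *Bmp2*, *Bmp4*, *Bmp5* and *Bmp6*, the ligand *Gdf10*, the activin subunit genes *Inhba* and *Inhbb*, the antagonists *Fst* and *Grem1*, and the receptor *Bmpr2*. Of these, 9 had at least 30 unique molecular identifiers (UMIs, each marking 1 captured mRNA molecule) in fibro-adipogenic progenitors (FAPs) in each comparison and count as tested there, and *Grem1* did not. A further 63 genes of the same pathway, in 5 lists, are given beside them.

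The study asked how diet-induced obesity changes the mesenchymal cells of the diaphragm and whether the matricellular protein thrombospondin 1 takes part. Mononuclear cells were released with collagenase from the costal diaphragm of male mice and captured for single-cell RNA-Seq with 3′ end chemistry. WT CD was 1 library of C57BL/6J mice kept on control diet (CD), WT HFD 1 library of C57BL/6J mice on a high-fat diet (HFD, 45% of calories from lipid), and KO HFD 1 library of B6.129S2-Thbs1tm1Hyn/J mice on the same HFD. Each group was 2 mice that had eaten chow until 2 months of age. The CD was that same chow, continued for another 6 months, and HFD mice changed to the HFD for 6 months. The chow was not matched to the HFD in micronutrients, which the paper names as a limit. The knockout was in the whole body. The WT CD library held 4132 cells and 34312860 UMIs, the WT HFD library 3774 cells and 31967976 UMIs, and the KO HFD library 4369 cells and 36478779 UMIs. Median depth was 7632.5, 8041.5 and 7554 UMIs per cell in that order. At most 7 cell barcodes occurred in both libraries of a pair. With 1 library per group, no difference has a replicate check and no p-value is given. The 95% intervals below cover counting error only, and both comparisons use the same WT HFD library.

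BMPs and GDFs are secreted dimers that bring type I and type II serine/threonine kinase receptors together, and the receptors phosphorylate SMAD proteins that enter the nucleus. Activins, dimers of inhibin β subunits, use related receptors and a second set of SMADs. Follistatin (*Fst*) binds activins and some BMPs outside the cell, and gremlin 1 (*Grem1*) binds BMPs. In skeletal muscle BMP signaling is known to favor muscle mass, activins are known to limit it, and mesenchymal progenitors are a known source of both kinds of ligand.

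The cell classes were rebuilt from the counts with the 10 genes and the pathway lists left out of the clustering, and a class carries the ending "-like" because its name rests on marker genes alone. The FAP-like class held 2247 WT CD, 1992 WT HFD and 2415 KO HFD cells, with all 4 FAP markers (*Pdgfra*, *Pdgfrb*, *Dcn* and *Osr1*) present in each. Levels are in CPM, the UMIs of a gene scaled to the summed UMIs of its class, and values in threes stand in the order WT CD, WT HFD, KO HFD. In FAP-like cells the 3 markers of muscle stem cells (MuSCs) summed to 1.01, 0.053 and 0.52 CPM (*Myf5* and *Pax7* were at 0 in WT HFD), the 4 of endothelial cells to 10.8, 11.3 and 13.0 CPM, and the 5 of macrophages to 9.49, 12.1 and 13.0 CPM. The 3 erythroid markers summed to 2.17, 38.4 and 2.85 CPM, led by *Hbb-bs* (1.21, 26.9 and 1.80 CPM), with *Alas2* at 0 in WT HFD. Hemoglobin RNA was thus highest in the WT HFD library, and its part in the results was not tested. *Thbs1* itself was at 192, 232 and 232 CPM in FAP-like cells. The counted tags lie at the 3′ end of the gene and may lie outside the deleted part, which was not checked. The label of the KO HFD library could therefore not be checked from this level, which was as high as in WT HFD.

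Of the 10 genes, 8 had most of their UMIs in FAP-like cells, which made up 54.2% of all cells. FAP-like cells also held most UMIs of each library (19814622, 18744272 and 21069292). Having most UMIs there therefore does not by itself set a gene apart. The FAP-like share of each gene's UMIs was 96.6% for *Gdf10*, 95.6% for *Bmp5*, 94.6% for *Fst*, 91.4% for *Inhba*, 88.3% for *Bmp2*, 87.7% for *Inhbb*, 81.3% for *Bmp4* and 74.6% for *Bmpr2*. *Bmp6* stood apart, with 21.1% of its UMIs in FAP-like cells, 47.0% in MuSC-like cells and 20.3% in endothelial-like cells. *Grem1* had 4 UMIs in the named classes, 2 in 1 FAP-like cell and 2 in 1 MuSC-like cell, both of the KO HFD library. Its level in FAP-like cells was 0 in the WT CD and WT HFD libraries, which allows up to 0.15 and 0.16 CPM, and no comparison was made.

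**Figure D1:**
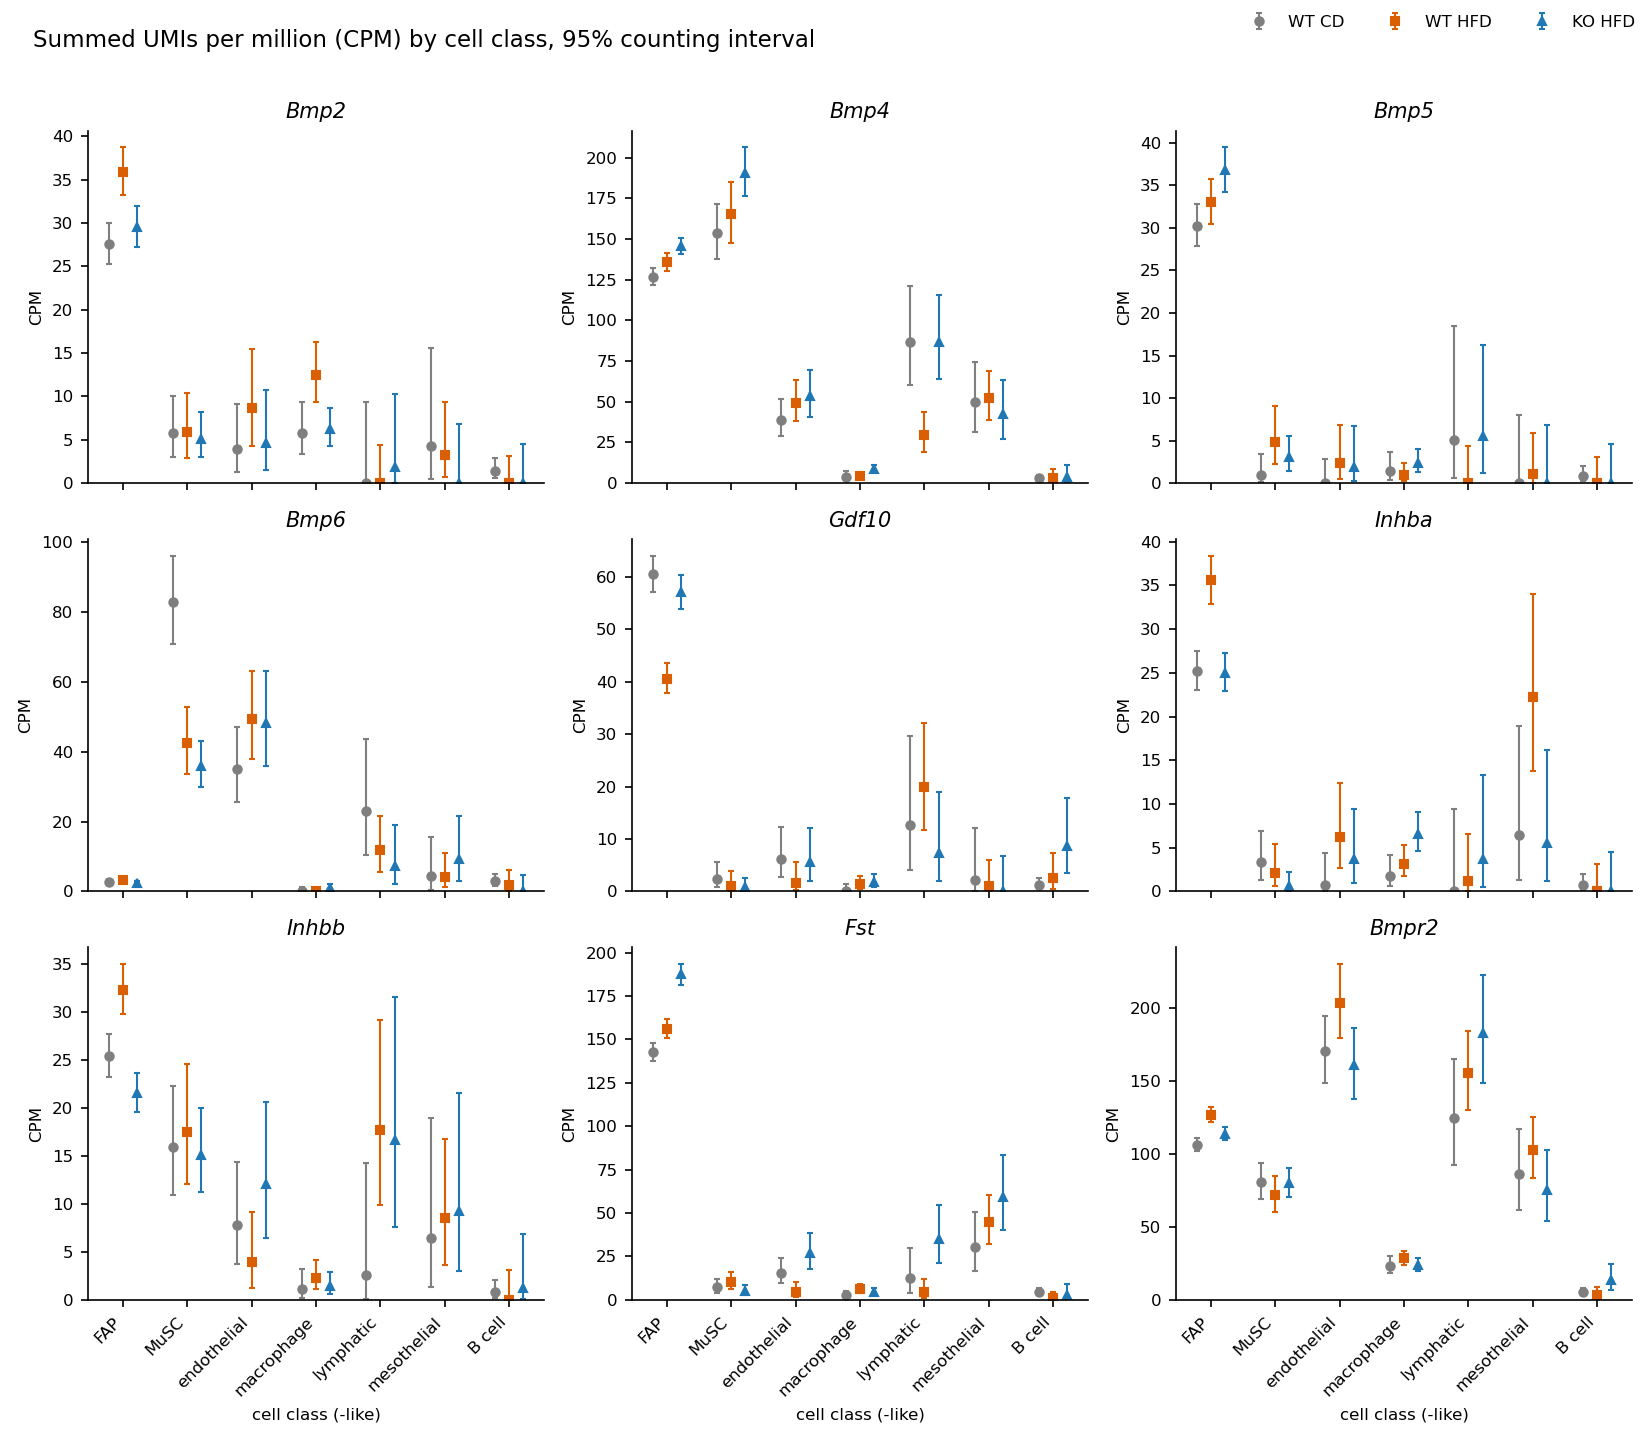
CPM of 9 of the 10 genes (vertical axes, starting at 0) in 7 cell classes, WT CD drawn as gray circles, WT HFD as orange squares and KO HFD as blue triangles, and 95% counting intervals as bars. Of the classes drawn, *Gdf10*, *Fst* and *Inhbb* are highest in FAP-like cells and *Bmp4* in MuSC-like cells in every library, while *Bmp6* is highest in MuSC-like cells in the WT CD library (82.7 CPM) and in endothelial-like cells in WT HFD (49.4 CPM) and KO HFD (48.1 CPM).

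Shares of cells with a UMI were compared with those of B cell-like cells, a class that held few UMIs of these genes. Cells were thinned to 3000 UMIs, and those with fewer were left out, here and in the thinned shares below. Left out were 163 of 6654 FAP-like, 42 of 674 B cell-like, 105 of 1246 MuSC-like and 474 of 983 endothelial-like cells. Of the cells kept, 30.04% of FAP-like and 0.47% of B cell-like cells had a *Bmp4* UMI. Among those kept, *Bmpr2* was found in 27.7% of FAP-like, 40.5% of endothelial-like (509 cells), 32.2% of lymphatic-like (236 cells) and 1.11% of B cell-like cells. For *Fst* the shares were 26.9% and 0%, for *Gdf10* 11.3% and 0.47%, and for *Inhba* 6.02% and 0%. *Bmp6* was at 0.68% in FAP-like and 0.47% in B cell-like cells, and it reached 13.8% of MuSC-like and 10.2% of endothelial-like cells. Its share was lower in macrophage-like cells (0.19%) and 0% in T or NK cell-like and dendritic cell-like cells. B cell-like cells therefore gave no background for *Bmp6*. Without thinning the shares in FAP-like and B cell-like cells were 52.7% and 1.93% for *Bmp4*, and 1.999% and 2.08% for *Bmp6*. For *Bmp6* the share in macrophage-like cells was then 0.28%. FAP-like cells had a median of 8616.5 UMIs, and the median B cell-like cell had 8028. Among the 15 named classes with at least 100000 UMIs, the interval of the leading class by CPM did not reach the next one for *Bmp4* (MuSC-like, 174 CPM, then FAP-like, 136 CPM), *Bmp5*, *Gdf10*, *Inhba*, *Inhbb* and *Fst* (mural cell-like, mostly 1 cell), and it overlapped for *Bmp2*, *Bmp6* and *Bmpr2*. The small mural cell-like class (15, 28 and 23 cells) led for *Bmp5* with 63.3 CPM from 25 UMIs, though its thinned share, 8.16%, was below the 8.69% of FAP-like cells, and the tenocyte-like class (7, 12 and 3 cells) led for *Inhba* with 99.3 CPM from 16 UMIs.

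FAPs were divided into 5 states by k-means clustering, without the pathway genes and without genes that differed between the libraries. Of these, 4 carried markers of the FAP1, FAP2, FAP3 and FAP4 subsets, and 1, led by *C4b* and *Il6*, stayed unnamed. The FAP3-like name was the weakest, with a mean log2 ratio of its markers of 0.90. That of the FAP1-like, FAP2-like and FAP4-like states was 2.36, 2.51 and 4.43. *Sult1e1*, a marker on the FAP3 list, was a leading gene of the unnamed state when the pathway genes were kept in the clustering. The states held 1315, 1089, 1867, 1074 and 1309 cells. Over the 3 libraries together, FAP1-like cells (led by *Cxcl14*) were highest for *Bmp2*, *Bmp4*, *Bmp5* and *Inhba*, the unnamed state for *Gdf10* and *Fst*, and FAP2-like cells (led by *Cmah*) for *Bmp6*, *Inhbb* and *Bmpr2*. For *Bmp4* the intervals of FAP1-like (244 CPM) and FAP4-like cells (237 CPM) overlapped, as did those of FAP2-like (38.7 CPM) and FAP1-like cells (35.4 CPM) for *Inhbb*. They also overlapped for *Bmpr2* between FAP2-like cells (135 CPM) and the unnamed state (131 CPM). Each of these pairs changed order in 1 library. In WT HFD *Bmp4* was at 250 CPM in FAP4-like and 232 CPM in FAP1-like cells, and *Inhbb* at 46.8 CPM in FAP1-like and 42.2 CPM in FAP2-like cells, and in KO HFD *Bmpr2* was at 129 CPM in the unnamed state and 128 CPM in FAP2-like cells. The highest state depended on the number of states. With 4 states it was FAP4-like for *Bmp4*, FAP3-like for *Gdf10* and FAP1-like for *Fst*, whose level in FAP1-like cells was 87.9 CPM with 5 states and 205 CPM with 4. With 7 states it was an unnamed state for *Inhbb*. The states were cut from the same cells, so these differences are described and not tested.

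**Figure D2:**
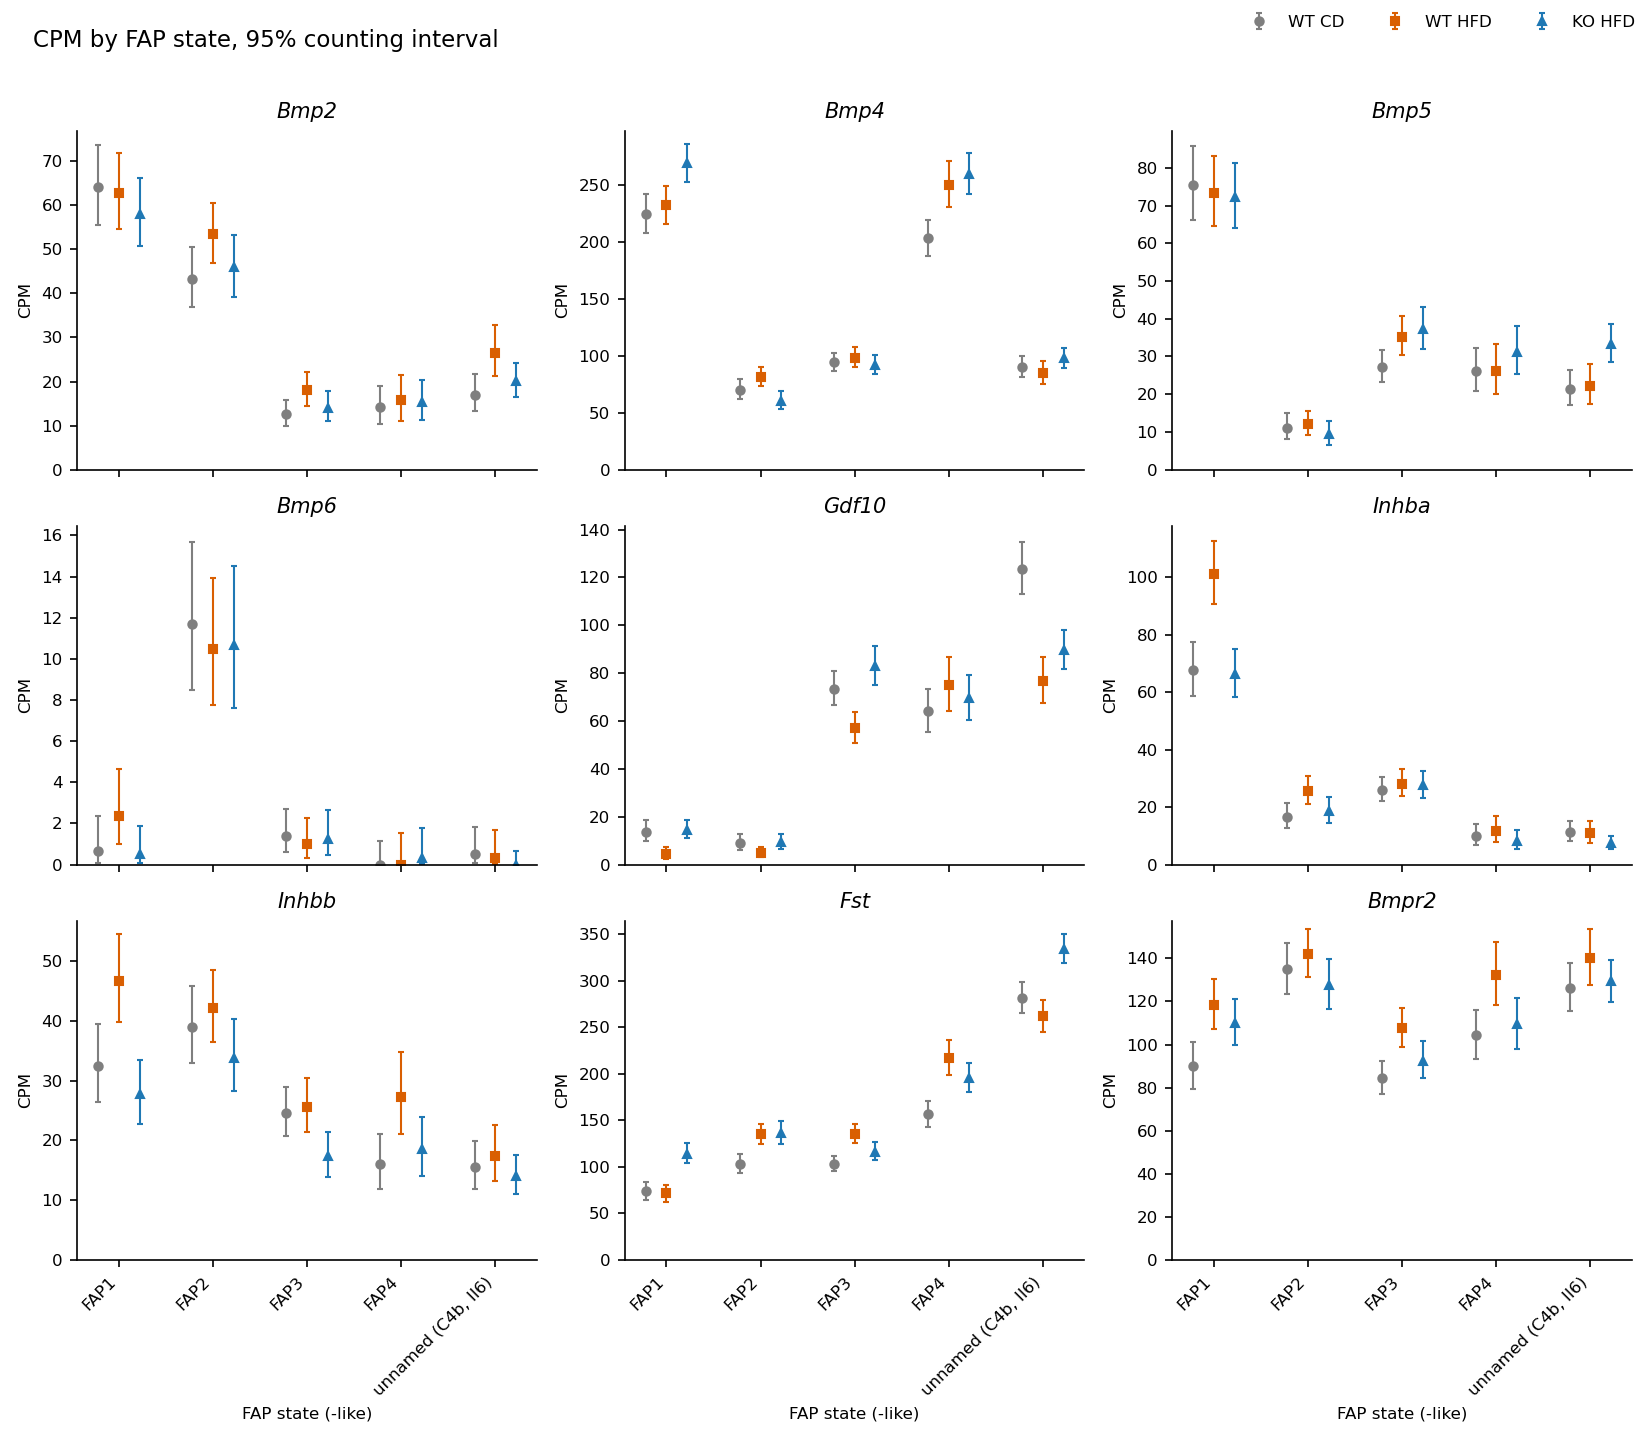
CPM of 9 genes (vertical axes, starting at 0) in the 5 FAP states, by library as gray circles (WT CD), orange squares (WT HFD) and blue triangles (KO HFD) with 95% counting intervals. *Gdf10* is lowest in FAP1-like and FAP2-like cells and *Inhba* is highest in FAP1-like cells. In FAP1-like cells the WT HFD library stands apart at 101 CPM of *Inhba* and 4.44 CPM of *Gdf10*.

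Among the BMP ligands, *Bmp4* (chr14:46383520-46390669, minus strand, GRCm38), a ligand long known for its part in adipose and muscle development, was at 127 CPM in the WT CD library, 136 in the WT HFD library and 146 in the KO HFD library in FAP-like cells. Its log2 ratio was 0.10 (0.02 to 0.18) for WT HFD over WT CD and 0.10 (0.02 to 0.18) for KO HFD over WT HFD, so the levels lay close together in the 3 libraries. With cells thinned to 3000 UMIs the second ratio was 0.23. FAP1-like cells held 225, 232 and 270 CPM and FAP4-like cells 203, 250 and 260 CPM, while FAP2-like cells held 70.4, 81.6 and 60.8 CPM. *Bmp2* (chr2:133552159-133562885, plus strand), a close relative of *Bmp4*, was at 27.6, 35.9 and 29.5 CPM, with the WT HFD library above both others beyond counting error. The ratio on the log2 scale was 0.38 (0.22 to 0.55) for WT HFD over WT CD and -0.28 (-0.44 to -0.12) for KO HFD over WT HFD. With the FAP states weighted alike the *Bmp2* ratios were 0.22 and -0.20. In FAP1-like cells, its highest state, *Bmp2* was at 64.1, 62.8 and 58.1 CPM and the 3 intervals overlapped. The WT HFD library was highest in each of the other 4 states. By state the interval left out 0 in 3 of 5 for WT HFD over WT CD and in 0 of 5 for KO HFD over WT HFD. FAP2-like cells, at 43.3, 53.4 and 45.9 CPM, had the largest difference in UMIs, from 163 in WT CD to 244 in WT HFD. They were 339 cells in WT CD and 401 in WT HFD, and these UMI counts include that difference in cell number. Their log2 ratio for WT HFD over WT CD was 0.30, below 0.64 in the unnamed state and 0.52 in FAP3-like cells. The unnamed state was at 17.0, 26.5 and 20.1 CPM and FAP3-like cells at 12.6, 18.0 and 14.1 CPM. *Bmp2* and *Grem1* lie 15.4 and 4.35 Mb from *Thbs1* on chromosome 2, so that strain sequence carried along with the deleted allele cannot be told apart from the genotype.

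*Bmp5* (chr9:75775364-75900310, plus strand), whose product is a ligand of the BMP7 group, was at 30.3, 33.02 and 36.8 CPM in FAP-like cells, with log2 ratios of 0.13 (-0.04 to 0.29) for WT HFD over WT CD and 0.16 (0.00 to 0.31) for KO HFD over WT HFD. It was highest in FAP1-like cells in every library, at 75.5, 73.4 and 72.3 CPM, and lowest in FAP2-like cells, at 11.2, 12.0 and 9.34 CPM. In the unnamed state it was at 21.3, 22.3 and 33.3 CPM, the 1 state of 5 where KO HFD lay above WT HFD beyond counting error. *Bmp6* (chr13:38345107-38500302, plus strand), of the same ligand group and best known for regulating iron through hepcidin in the liver, was at 2.83, 3.31 and 2.33 CPM in FAP-like cells, from 56, 62 and 49 UMIs, and the intervals of both ratios included 0. In FAP2-like cells it was at 11.7, 10.5 and 10.7 CPM, and that state held 79.0% of the FAP UMIs of *Bmp6*. In the FAP4-like state it was at 0, 0 and 0.32 CPM.

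*Gdf10* (chr14:33923587-33937983, plus strand), also called *Bmp3b* and known from mesenchymal progenitors of muscle, was the member with the lowest ratio on HFD. FAP-like cells of the WT CD library held 60.5 CPM, those of the WT HFD library 40.6 CPM and those of the KO HFD library 57.0 CPM. The WT HFD library was below both others, and its interval (37.8 to 43.6 CPM) met neither of theirs. The log2 ratio was -0.58 (-0.71 to -0.44) for WT HFD over WT CD and 0.49 (0.36 to 0.62) for KO HFD over WT HFD. With the 5 states weighted alike these ratios were -0.38 and 0.29. WT HFD was the lowest library in 4 of 5 states. *Gdf10* was at 124, 76.6 and 89.7 CPM in the unnamed state, 73.4, 57.0 and 82.9 CPM in FAP3-like cells, 13.7, 4.44 and 14.5 CPM in FAP1-like cells and 9.03, 5.03 and 9.34 CPM in FAP2-like cells. FAP4-like cells, with 64.0, 74.9 and 69.5 CPM, did not share this order. In the clustering of all cells *Gdf10* was most abundant in a FAP-like cluster led by *Sult1e1* and *Col6a5*, at 213, 138 and 211 CPM.

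*Inhba* (chr13:16011851-16031621, plus strand) encodes the inhibin βA subunit of activin A, and in FAP-like cells it ran the other way. It was at 25.2 CPM in the WT CD library, 35.6 CPM in the WT HFD library and 25.01 CPM in the KO HFD library, so WT HFD stood alone above a pair of nearly equal levels. The log2 ratio was 0.50 (0.33 to 0.67) for WT HFD over WT CD and -0.51 (-0.68 to -0.34) for KO HFD over WT HFD. The largest differences in UMIs were in FAP1-like cells, which held 47.6% of the FAP UMIs of *Inhba* and were at 67.7, 101 and 66.4 CPM. FAP2-like cells followed with 16.7, 25.6 and 18.7 CPM. Their log2 ratio for WT HFD over WT CD, 0.61, was close to the 0.58 of FAP1-like cells. FAP3-like cells were at 26.0, 28.2 and 27.6 CPM, but 54 of the 135 UMIs of the KO HFD library there lay in 1 cell. Without that cell the KO HFD level was 16.6 CPM, and the log2 ratio for KO HFD over WT HFD was -0.77 (-1.18 to -0.37). The other states had low levels, with 10.0, 11.6 and 8.29 CPM in FAP4-like cells and 11.3, 10.98 and 7.37 CPM in the unnamed state. The FAP-like cluster led by *Dio2* and *Pthlh*, in which the tenocyte gene *Comp* was also highest, had 64.1, 74.2 and 77.2 CPM of *Inhba*. Without that cluster the ratios of *Inhba* in FAP-like cells kept their direction. In FAP-like cells as a whole the ratio for KO HFD over WT HFD was -0.66 without the cell of 54 UMIs, which was past 1.5-fold. With cells thinned to 3000 UMIs the share of the kept FAP-like cells with *Inhba* was 5.79, 7.47 and 5.05%.

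The promoters of these 2 genes are printed because *Gdf10* and *Inhba* had opposite ratios in both comparisons. Their highest FAP states also differed, the unnamed state for *Gdf10* and FAP1-like cells for *Inhba*. The order of the states was not opposite throughout, since FAP3-like cells, at 71.1 and 27.2 CPM, came next for both. They are the 250 bases before and 50 after the start site in RefSeq, on build GRCm38.p6, and the promoter table used here matched 8 of the 10 genes (not *Bmp2* or *Fst*). *Gdf10* is read from chr14:33923337-33923636 and *Inhba* from chr13:16011601-16011900, both on the plus strand. Capitals mark GGCGCC, letters bound by SMADs in some BMP response elements, and TATAAA, letters found in many TATA boxes, searched on both strands without overlap between them.
Gdf10: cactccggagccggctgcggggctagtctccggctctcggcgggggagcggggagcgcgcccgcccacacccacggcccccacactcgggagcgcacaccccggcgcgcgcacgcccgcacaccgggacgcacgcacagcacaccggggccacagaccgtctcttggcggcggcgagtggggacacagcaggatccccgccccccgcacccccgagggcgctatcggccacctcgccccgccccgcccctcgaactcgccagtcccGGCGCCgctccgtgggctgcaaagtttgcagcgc
Inhba: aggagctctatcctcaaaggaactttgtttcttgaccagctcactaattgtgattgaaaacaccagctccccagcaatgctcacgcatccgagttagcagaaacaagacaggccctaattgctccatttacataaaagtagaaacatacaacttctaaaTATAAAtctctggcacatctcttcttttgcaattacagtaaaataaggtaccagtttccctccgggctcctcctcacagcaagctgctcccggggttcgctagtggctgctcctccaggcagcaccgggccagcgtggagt
The *Gdf10* stretch was 77.3% G or C and had GGCGCC downstream of the start site. The motif was in 3 of the 8 promoters, those of *Bmpr2*, *Gdf10* and *Grem1*. The *Inhba* stretch was 47.7% G or C and was the 1 of 8 with TATAAA, which began at position -91 relative to the start site, farther upstream than a TATA box usually lies. Of all 32851 promoters, 11.9% held GGCGCC and 13.6% TATAAA, and a match describes the letters only.

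*Inhbb* (chr1:119415465-119422248, minus strand), which encodes the βB subunit of activin B, was at 25.4, 32.3 and 21.5 CPM in FAP-like cells. WT HFD was again the highest library, its interval (29.8 to 35.0 CPM) met neither of the others, and those of WT CD and KO HFD overlapped (23.2 to 27.7 and 19.6 to 23.6 CPM). The log2 ratio was 0.35 (0.17 to 0.52) for WT HFD over WT CD and -0.59 (-0.77 to -0.41) for KO HFD over WT HFD, and the first was 0.53 with cells thinned to 3000 UMIs. In each of the 5 states the WT HFD library was above the other libraries, with 32.5, 46.8 and 27.7 CPM in FAP1-like cells and 39.1, 42.2 and 33.9 CPM in FAP2-like cells. The interval left out 0 in 2 of 5 states for WT HFD over WT CD and in 3 of 5 for KO HFD over WT HFD. FAP4-like cells were at 16.01, 27.3 and 18.5 CPM, FAP3-like cells at 24.6, 25.7 and 17.4 CPM and the unnamed state at 15.5, 17.4 and 14.0 CPM.

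*Fst* (chr13:114452290-114458951, minus strand), the activin antagonist, was at 143, 156 and 187 CPM in FAP-like cells, each library above the one before it beyond counting error. Its ratio on the log2 scale was 0.13 (0.05 to 0.20) for WT HFD over WT CD and 0.26 (0.19 to 0.33) for KO HFD over WT HFD. The states differed among themselves. The higher KO HFD level stood in the unnamed state (281, 261 and 334 CPM) and in FAP1-like cells (73.5, 71.1 and 114 CPM). FAP3-like cells were at 103, 135 and 116 CPM and FAP4-like cells at 156, 217 and 196 CPM, with WT HFD the highest library. In FAP2-like cells both HFD libraries, at 135 and 136 CPM, lay above WT CD at 103 CPM. The unnamed state was also a larger share of the KO HFD library, at 13.0% of its cells against 10.1% and 8.64%. With the 5 states weighted alike, the ratio for KO HFD over WT HFD was 0.13.

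*Bmpr2* (chr1:59763400-59879014, plus strand), the type II receptor for BMPs, was at 106, 127 and 114 CPM in FAP-like cells. The ratio was 0.25 (0.17 to 0.34) for WT HFD over WT CD and -0.15 (-0.24 to -0.07) for KO HFD over WT HFD. By state it lay between 84.4 CPM in FAP3-like cells and 135 CPM in FAP2-like cells of the WT CD library, and WT HFD was the highest library in all 5. The interval left out 0 in 3 of 5 states for WT HFD over WT CD and in 2 of 5 for KO HFD over WT HFD.

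**Figure D3:**
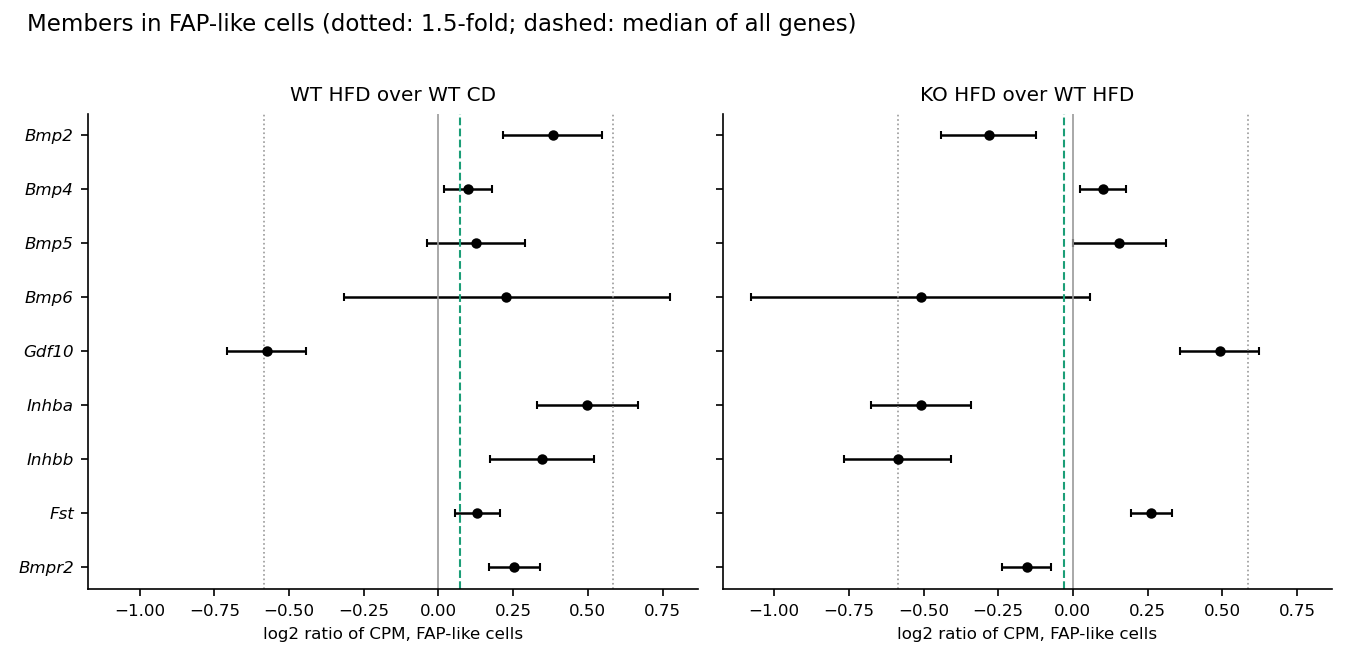
Log2 ratio of CPM in FAP-like cells (horizontal axes) for 9 genes, WT HFD over WT CD at left and KO HFD over WT HFD at right, with 95% counting intervals, dotted lines at 1.5-fold and a dashed line at the median of all genes tested. *Gdf10* is at -0.58 and then 0.49, and *Inhba* at 0.50 and then -0.51. Both panels share the WT HFD library.

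In FAP-like cells, none of the 9 tested members was past 1.5-fold for WT HFD over WT CD, where 2.66% of 12826 genes were higher and 3.48% lower past that fold. Of 9 members 8 were above 0 on the log2 scale, beside 64.2% of all genes, and their median log2 ratio was 0.23 beside 0.07 for all genes. For KO HFD over WT HFD, 0 members were higher and 1, *Inhbb*, was lower past 1.5-fold, where 3.23% of 12891 genes were higher and 1.89% lower. The members' median log2 ratio was -0.15 beside -0.03 for all genes. *Inhbb* lay just past the fold (-0.59) and *Gdf10* just inside it (-0.58 for WT HFD over WT CD), and which of them was past it depended on the scaling of the libraries. When each gene was taken without its richest cell, *Gdf10* was past the fold for WT HFD over WT CD (-0.61), and for KO HFD over WT HFD *Inhba* was past it (-0.66) and *Inhbb* was not (-0.57). Of all genes past 1.5-fold for WT HFD over WT CD, 43.3% were higher when scaled to all UMIs, 30.7% with TMM (trimmed mean of M values) and 32.2% with median-of-ratios scaling.

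The genes that BMP signaling is known to induce lay on 1 side in each comparison. Of 8 listed target genes, 8 of 8 were lower in FAP-like cells of the WT HFD library than in WT CD, with a median log2 ratio of -0.34, and 8 of 8 were higher in KO HFD than in WT HFD, with a median of 0.38. Among all genes tested 64.2% and 43.5% were above 0 in the same comparisons. Past 1.5-fold were 1 target, *Bambi*, in the first comparison and 0 in the second. Because both comparisons contain the WT HFD library, the second count is not separate from the first. The target list was also chosen with earlier results of these data known, so neither count is independent of them.

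*Id2*, an inhibitor of basic helix-loop-helix factors, was at 158, 122 and 164 CPM in FAP-like cells. Its relative *Id3* was at 560, 512 and 659 CPM, and *Id1* was at 41.3, 31.6 and 34.4 CPM. *Bambi*, a decoy receptor without kinase domain, was at 45.3, 30.2 and 40.8 CPM. The inhibitory SMAD gene *Smad7* was at 86.1, 70.5 and 84.4 CPM. Each had its lowest level in the WT HFD library. For KO HFD over WT HFD the log2 ratio of *Id1* was -0.08 in FAP1-like cells, -0.11 in the unnamed state and -0.16 in FAP2-like cells. It was 0.24 in FAP3-like and 0.20 in FAP4-like cells, and each of these intervals included 0. By state, the unnamed state had 8 of 8 tested targets lower for WT HFD over WT CD, where 38.9% of all genes were lower, and 6 of 8 higher for KO HFD over WT HFD, where 43.8% of all genes were higher. FAP3-like cells had 6 of 8 and 8 of 8, beside 38.2% and 42.7% of all genes. FAP4-like cells had 6 of 7 and 7 of 8, beside 37.6% and 46.9%, and FAP1-like cells 5 of 6 and 5 of 6, beside 38.8% and 43.9%. FAP2-like cells had 4 of 7 lower and then 2 of 6 higher, beside 38.1% and 42.7%, with medians of -0.16 and -0.10. In that order of comparisons, intervals that included 0 were 2 of 8 and 4 of 8 in the unnamed state. They were 5 of 8 and 4 of 8 in FAP3-like cells and 3 of 7 and 5 of 6 in FAP2-like cells. In FAP4-like cells they were 5 of 7 and 5 of 8, and in FAP1-like cells 4 of 6 and 3 of 6. Differences between states were not tested. Of 12 immediate early genes, a list set after the data were seen, 10 were lower in FAP-like cells of WT HFD than of WT CD and 11 were higher in KO HFD than in WT HFD, with median log2 ratios of -0.18 and 0.30. *Nr4a1*, for example, was at 380, 286 and 430 CPM. Their part in the target gene levels was not tested.

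**Figure D4:**
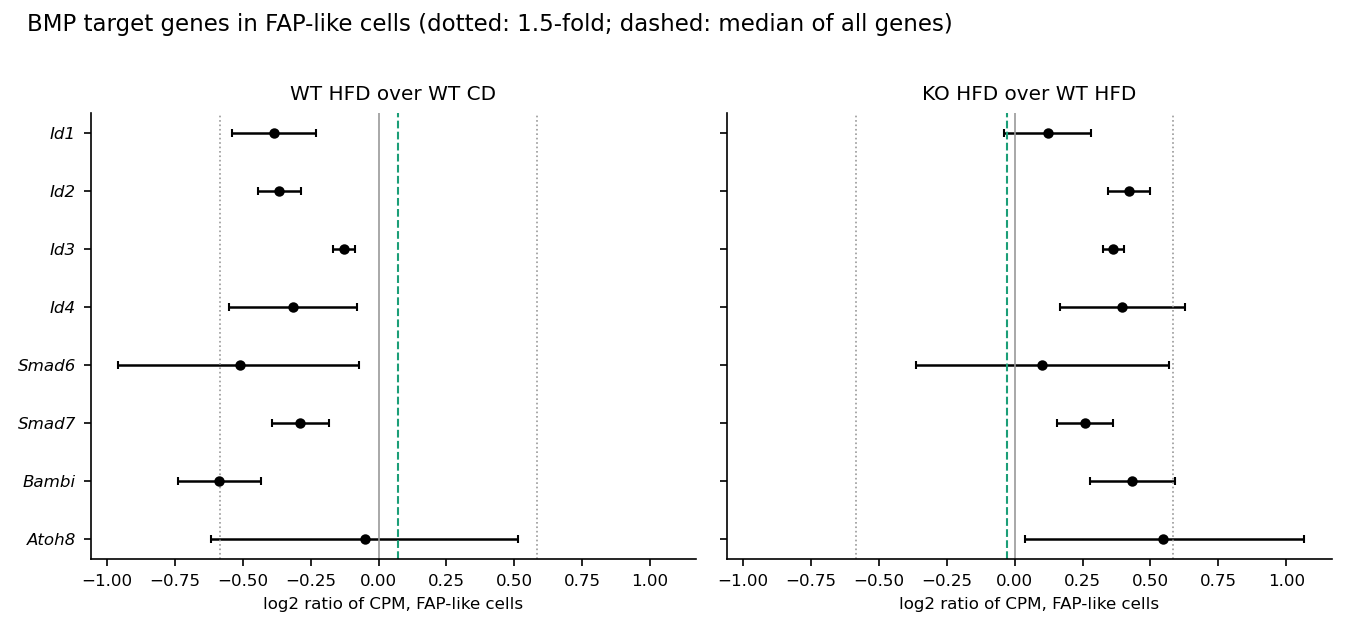
Log2 ratio of CPM in FAP-like cells (horizontal axes) for 8 BMP target genes, WT HFD over WT CD at left and KO HFD over WT HFD at right, with 95% counting intervals, dotted lines at 1.5-fold and a dashed line at the median of all genes tested. All 8 points lie below 0 at left and above 0 at right, and the intervals of 1 gene at left and 2 at right cross 0.

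Of the 4 other lists of the pathway, 34 of 55 genes could be tested in FAP-like cells. In each comparison 3 of them (8.82%) were past 1.5-fold, beside 6.14% of all genes for WT HFD over WT CD and 5.13% for KO HFD over WT HFD. Of 19 other ligands 6 could be tested, and *Bmp3* was past the fold in both comparisons, at 0.71, 2.03 and 0.33 CPM from 14, 38 and 7 UMIs. *Bmp7* was at 15.1, 20.1 and 15.05 CPM, *Gdf15*, a stress-induced ligand, at 13.4, 13.1 and 16.6 CPM, *Gdf11* at 5.85, 5.66 and 7.26 CPM and *Gdf6* at 3.99, 3.68 and 3.61 CPM. Of 12 receptors and co-receptors 10 were tested and 0 were past the fold in either comparison, with *Bmpr1a*, a type I BMP receptor, at 78.4, 78.05 and 77.3 CPM and *Rgmb*, a co-receptor, at 64.4, 74.2 and 73.4 CPM. The type I receptor gene *Acvrl1* was at 65.5, 70.96 and 71.2 CPM in FAP-like and 232, 206 and 209.9 CPM in endothelial-like cells, and the co-receptor gene *Eng* at 73.6, 77.8 and 73.8 CPM in FAP-like and 818, 998 and 715 CPM in endothelial-like cells. Of 6 SMAD genes 5 were tested and 0 were past it, and *Smad1* and *Smad5*, which carry BMP signals, were at 25.7, 28.6 and 27.8 CPM and at 32.7, 36.3 and 38.97 CPM. *Smad2*, which carries activin signals, was at 29.6, 27.4 and 26.8 CPM, and *Smad4*, the partner common to both, at 63.1, 75.1 and 69.1 CPM. Of 18 other antagonists 13 were tested. *Fstl3*, a relative of follistatin, was at 15.9, 10.2 and 11.3 CPM, lower past the fold for WT HFD over WT CD with a log2 ratio of -0.64 (-0.91 to -0.38). *Wfikkn2* was also past it, at 1.16, 0.53 and 1.19 CPM, but from 23, 10 and 25 UMIs and with an interval that included 0 (-2.36 to 0.006). For KO HFD over WT HFD *Wfikkn2* (0.04 to 2.38) and *Chrdl1* (0.32 to 2.12, from 16 and 41 UMIs) were higher past the fold. *Chrdl1* was at 0.76, 0.85 and 1.95 CPM. The abundant *Fstl1* was at 1034, 1396 and 1173 CPM, and *Nbl1*, which binds BMPs, at 995, 782 and 714 CPM. *Twsg1*, a BMP-binding protein gene, was at 151, 140.1 and 136 CPM. *Sostdc1*, another BMP antagonist, was highest in Schwann-like cells, at 482, 265 and 227 CPM there.

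MuSC-like cells (432, 310 and 504 cells), which were named by *Myf5*, *Pax7* and *Cdh15*, held the largest share of the *Bmp6* UMIs. The level was 82.7 CPM in the WT CD library (70.8 to 96.0), 42.4 CPM in the WT HFD library (33.6 to 52.8) and 35.97 CPM in the KO HFD library (29.8 to 43.0). The WT CD library stood above both HFD libraries, which overlapped each other. The log2 ratio was -0.96 (-1.36 to -0.57) for WT HFD over WT CD and -0.24 (-0.66 to 0.19) for KO HFD over WT HFD. No more than 4 UMIs came from 1 cell. Depth differed between the libraries here, with medians of 4468.5, 5322.5 and 5670 UMIs per cell. Thinning to 3000 UMIs left out 76, 14 and 15 cells, unevenly between the libraries. Of the thinned cells that remained, 20.8, 11.1 and 10.2% had *Bmp6*. Within the largest MuSC-like cluster, led by *Pax7* and *Gal*, *Bmp6* was at 86.7, 46.8 and 36.6 CPM.

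*Bmp6* was the 1 of 5 tested members past 1.5-fold in MuSC-like cells for WT HFD over WT CD, where 20.8% of 7754 genes were past it, 1222 higher and 394 lower. For KO HFD over WT HFD 1 of 5 was past it, *Fst*, from 19 and 17 UMIs with an interval that included 0 (-2.01 to 0.05) and a ratio of -0.20 without 1 cell, beside 11.5% of 8564 genes. *Bmp4* was at 154, 165 and 191 CPM in MuSC-like cells, with overlapping intervals between neighbors. Its log2 ratio for KO HFD over WT HFD was 0.20, and without its richest cell 0.17 (-0.02 to 0.38). *Bmpr2* was at 80.8, 71.6 and 80.1 CPM. Of the target genes *Id1* was at 577, 361 and 356 CPM and *Smad7* was also past the fold, lower in WT HFD than in WT CD (log2 ratio -0.72). Of 7 targets tested 1 was above 0 for WT HFD over WT CD (median -0.26), beside 66.1% of all genes. For KO HFD over WT HFD 2 of 7 were above 0 (median -0.05), beside 43.8% of all genes. Cells with 10 or more UMIs of the FAP marker *Dcn* were 3.47, 3.55 and 4.17% of the class, and without them the ratio of *Bmp6* for WT HFD over WT CD was -1.02.

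Endothelial-like cells (363, 332 and 288 cells) were at 171, 204 and 161 CPM of *Bmpr2*. With the libraries pooled they were highest of those 15 classes, at 179 CPM, but the interval overlapped that of the lymphatic-like class (157 CPM), which was the higher of the pair in the KO HFD library, at 183 CPM. Mast cell-like cells, 25 cells with under 100000 UMIs, were at 209 CPM of *Bmpr2* from 8 UMIs (90.3 to 412 CPM). Endothelial-like cells carried *Bmp6* at 35.1, 49.4 and 48.1 CPM. The WT HFD library was highest for *Bmpr2*, with a ratio of 0.26 (-0.01 to 0.52) over WT CD and -0.34 (-0.63 to -0.06) for KO HFD over WT HFD. Over the alternatives run the second ratio lay between -0.61 and -0.28, past 1.5-fold at its lower end. Of 3 members tested for WT HFD over WT CD 0 were past 1.5-fold, where 12.9% of 7424 genes were. This count depended on which cells were kept. *Bmp6* was past the fold without its richest cell (0.59, 0.004 to 1.19, against 0.49). *Bmp4* was past it without cells of 10 or more *Dcn* UMIs (1.14 against 0.34), and it was at 0.05 without its richest cell. Of 4 tested for KO HFD over WT HFD 1 was, *Fst*, beside 12.9% of 7238 genes. *Fst* was at 15.6, 4.70 and 26.8 CPM, and 20 of the 29 UMIs of the KO HFD library came from 1 cell, without which the ratio for KO HFD over WT HFD was 0.84 (-0.81 to 2.62) in place of 2.51. Mural cell-like cells had the like, with 44.3, 27.5 and 963 CPM of *Fst*, where 82 of the 140 UMIs of the KO HFD library lay in 1 of 23 cells.

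Lymphatic-like cells (66, 128 and 80 cells) had *Bmpr2* at 125, 155 and 183 CPM. *Bmp4* was at 86.7, 29.4 and 86.8 CPM there, from 34, 25 and 47 UMIs, with the WT HFD library below both others beyond counting error. Mesothelial-like cells (40, 86 and 51 cells) had *Fst* at 30.2, 44.6 and 58.9 CPM and *Inhba* at 6.47, 22.3 and 5.53 CPM, from 3, 21 and 3 UMIs, so these small classes rested on few molecules. No genes past a fold were counted in them.

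Macrophage-like cells (230, 408 and 447 cells) held low levels of the members. *Bmp2* was at 5.78, 12.5 and 6.20 CPM, highest in the WT HFD library. In 2 of 3 clusters WT HFD was not the highest library. The cluster led by *Cd209f* and *Folr2* had 14.9, 14.8 and 16.5 CPM, the cluster led by *Mmp12* and *Retnla* 1.04, 2.92 and 0.56 CPM (2, 5 and 2 UMIs), and the cluster led by *Saa3* and *Alox15*, with 8, 56 and 14 cells, 28.8, 26.2 and 18.8 CPM. Of 4 members tested for WT HFD over WT CD 2 were past 1.5-fold, *Bmp2* and *Fst* (0.23 without 1 cell), where 17.1% of 9209 genes were. Of 5 tested for KO HFD over WT HFD 3 were, *Bmp2* lower and *Bmp4* and *Inhba* higher, where 12.3% of 9873 genes were. The *Bmp2* ratio was -1.01, and with clustering at resolution 0.5 it was -0.48, inside the fold. *Bmp4* rested on 11, 19 and 46 UMIs, and its ratio of 0.96 was 0.70 without 1 cell, with an interval that included 0 (-0.13 to 1.57). *Inhba*, with 22 of 36 UMIs of the KO HFD library in 1 cell, had a ratio of 1.05 with that cell and -0.31 without it.

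The genes whose levels followed each member most closely were taken over 34 sums of class and library, as a description. *Bmp4* lay closest to *Zbtb20* (r = 0.94), *Nfia* (0.94) and *Tcaf1* (0.94), and *Bmpr2* to *Sash1* (0.95), *Wwc2* (0.95) and *Tns2* (0.94). *Bmp6* lay closest to *Hoxb3os* (0.92), *Ntf3* (0.90) and *Tbx3* (0.90), and *Fst* to *Scarf2* (0.87), *Cyp1b1* (0.86) and *Sdc2* (0.86). For *Bmp5* the genes were *Pdgfrb* (0.86), *Enpep* (0.84) and *Ednra* (0.83), for *Inhbb* *Gm17167* (0.86), *Rab11fip3* (0.83) and *Efna2* (0.83), and for *Gdf10* *Nova1* (0.85), *Ptx3* (0.85) and *Ptgfr* (0.81). The genes closest to *Inhba*, namely *Map1a* (0.80), *Slc4a3* (0.77) and *Col4a3* (0.76), and to *Bmp2*, namely *Plekha6* (0.76), *Aspn* (0.76) and *Dnm3os* (0.75), had the lowest r. These sums share libraries and cell classes.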

How the data were processed

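The 3 single-cell libraries of diaphragm mononuclear cells were analyzed, 1 per group by the sample labels. The authors aligned reads to mm10 (GRCm38) with Cell Ranger 6.1.1 (the matrix headers name 6.1.0), and deposited whole-number UMI counts per gene and cell without normalization. All barcodes were kept. Counts were processed in Python 3.11.15 (numpy 2.4.6, scipy 1.17.1, scanpy 1.11.5, scikit-learn 1.9.0, leidenalg 0.10.2, matplotlib 3.10.9). Cells were scaled to 10000 counts, and 2000 variable genes, 30 principal components, 15 neighbors and Leiden resolution 1 gave 35 clusters and 17 named classes. Naming needed a mean log2 ratio of the marker set of at least 1 (0.5 for FAP states), with 3 markers each in 10% of the cells. FAP states came from k-means (k = 5, 50 starts), without 194 genes. Scrublet (expected rate 0.06) called 1.26, 1.09 and 1.33% of cells doublets, which were kept. Each group was 2 mice by the study's figure legends, and cells could not be assigned to mice.

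UMIs were summed per class and library. CPM carry exact Poisson intervals and log2 ratios exact conditional intervals (95%, counting error only). The linear fold of 1.5 is that of the study's methods. A gene was tested with at least 30 UMIs over both libraries, and a gene at 0 in 1 library was set to a floor of 3 counts. No test was made, since cells are not replicates and each group is 1 library, so depth limits only the counting error. On simulated counts 96.0% and 97.0% of 2-fold changes passed the fold, for WT HFD over WT CD and KO HFD over WT HFD. Of unchanged genes 2.53% and 2.03% did. Intervals for counting error alone held 95.6% and 95.7% of the unchanged ratios, so these shares cover counting error only. Added spread between cells, mice or libraries was not tested. TMM used edgeR 4.0.16 in R 4.3.3. Members were always named. Other listed genes were named if past 1.5-fold in FAP-like cells or among up to 4 of a list with the highest CPM in any class. Genes of like pattern were the 3 with the highest Pearson r of log2(CPM + 1), among genes at 20 CPM in 1 sum of 100000 UMIs or more. Members and lists were chosen with earlier results of these data known.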

Additional observations from a re-analysis of the deposited data

Results flagged for a closer look

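*Inhba* differed in opposite directions in 2 cell classes under the same comparison, KO HFD over WT HFD. The log2 ratio was -0.51 in FAP-like cells and 1.05 in macrophage-like cells, each with a counting interval that left out 0. The difference between the classes was not tested. In macrophage-like cells the level was 1.81, 3.17 and 6.57 CPM in WT CD, WT HFD and KO HFD, and 22 of the 36 UMIs of the KO HFD library came from 1 of 447 cells. Without that cell the macrophage-like ratio was -0.31 (-1.49 to 0.87), so the opposite direction rested on it. With clustering at resolution 0.5 the macrophage-like ratio was 2.22.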

How the results depend on the processing

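Of the alternative values for the FAP counts and medians 100 stayed within the stated limits (1.5 times for a count, counting error for a median) and 14 moved. Members past 1.5-fold for KO HFD over WT HFD were 1 as reported and 0 with the filter on genes and mitochondrial UMIs, with TMM, with median-of-ratios scaling, with FAP states weighted alike and without the cluster led by *Dio2* and *Pthlh*, and 4 at a fold of 1.4. For WT HFD over WT CD they were 0 as reported, 1 with TMM, with median-of-ratios scaling or with the richest cell of each gene left out (*Gdf10* each time), and 2 at a fold of 1.4. All genes past the fold for WT HFD over WT CD were 787 as reported, 2965 with no filter on low counts and 306 with at least 100 UMIs. For KO HFD over WT HFD they were 661, 2785 and 219. The members' median log2 ratio lay between 0.16 and 0.25 for WT HFD over WT CD and between -0.18 and -0.01 for KO HFD over WT HFD. Target genes below 0 in the first comparison, and above 0 in the second, were 7 or 8 of 8 under every alternative run. Of the values of single genes 476 stayed within counting error, 24 moved beyond it and 1 reversed a called direction, *Inhba* in macrophage-like cells for KO HFD over WT HFD, at -0.31 without 1 cell. The ratio of *Gdf10* for KO HFD over WT HFD was 0.29 with states weighted alike against 0.49, and with k = 4 its highest state was FAP3-like, at 77.7 CPM. With k = 4 *Fst* was highest in FAP1-like cells (205 CPM), *Bmp4* in FAP4-like cells (226 CPM), and *Inhba* in FAP1-like cells was at 38.8 CPM against 78.2 CPM. With k = 7 *Inhbb* was highest in an unnamed state (45.3 CPM). *Bmp4* in endothelial-like cells for WT HFD over WT CD was 1.14 without cells of 10 or more *Dcn* UMIs against 0.34. Leaving out that cell set, that cluster, the smaller MuSC-like clusters, the richest cell of a gene and the fold of 1.4 were chosen after seeing the data. No paired analysis was possible because each group is 1 library, and for the same reason no replicate could be left out. Groups rest on 2 mice each, so variation between mice cannot be told apart from diet or genotype. For the moved values, the cause was not tested.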
